A study of Mus musculus with 12 samples.

Results

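Reads that fell outside the annotated exons of a gene were compared between mouse embryonic fibroblasts given an siRNA against IMP2 and fibroblasts given a control siRNA. In each library the outside reads of a gene were its total gene reads minus its exon reads. Genes were chosen by their outside reads summed over the 12 libraries, 100 or more, whatever their change, and 12373 of the 48709 genes in the files met this rule. Of the other genes 9959 had at least 1 outside read and 26377 had 0. Each of the 12373 genes was then set beside its own exon reads, and 11443 of them could be tested for both. The 70 genes with 100 to 102 outside reads had median levels of 4.45 outside CPM in the siControl and 3.82 in the siIMP2 libraries. The 51 genes just short of the rule, with 97 to 99 reads, had 4.40 and 3.45.

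Most RNA outside annotated exons is intron sequence of pre-mRNA that has not yet been spliced, so its level follows production of a transcript more closely than exon reads, which come mostly from mature mRNA. Such reads can also come from retained introns, unannotated exons and overlapping genes. IMP2, the product of Igf2bp2, is one of 3 related proteins (Igf2bp1, Igf2bp2 and Igf2bp3) that bind mRNA, largely in the cytoplasm, and are known for effects on its stability, transport and translation. Small interfering RNAs guide cleavage of mature mRNA that matches them.

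The cells were C57BL/6 wild-type mouse fibroblasts from E12.5 to E13.5 embryos. They received control siRNA (siControl) or siRNA against IMP2 (siIMP2), and 24 hours later, after fresh medium, were left unstimulated or treated for 8 hours with IL-17 at 200 ng/mL. Stromal cells answer this cytokine of T helper cells with chemokines and acute-phase proteins. With 3 libraries in each of siControl, siControl_IL17, siIMP2 and siIMP2_IL17, 6 siIMP2 libraries stood against 6 siControl libraries. Replicates 1 and 2 of each group have titles that begin with NA and replicate 3 a title that begins with RB160. This title set was a term in every model. Nothing in the labels says that the libraries came from separate cultures or embryos, so p-values here speak only of the scatter among libraries, part of which may be technical.

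Exon reads numbered 33841054 to 44433699 per library and outside reads 1591933 to 3049809, and levels are given in CPM, counts of 1 kind scaled to a common total per library with TMM factors, of which 1 outside CPM stood for 1.55 to 3.37 reads. Outside reads made up 6.42% of gene reads in siControl_IL17 replicate 3 and 6.28% in siIMP2_IL17 replicate 3, against 4.49 to 5.34% in the other 10 libraries. Their share was 5.03% ± 0.711 (SD, n = 6) in siControl and 5.15% ± 0.618 (SD, n = 6) in siIMP2 libraries, a difference of 0.04 on the log2 scale (two-sided exact permutation test within title sets, p = 0.571, smallest possible p 0.00476). Summed exon CPM of the fibroblast markers was 16489.5 to 23166 in siControl and 17960.7 to 24182 in siIMP2 libraries. Markers of macrophages summed to 8.11 to 15.8 and 8.54 to 11.7 CPM, with Adgre1 and Tyrobp at 0 in all libraries, those of endothelium to 0.547 to 1.5 and 0.520 to 1.17, and those of skeletal muscle to 0.570 to 1.67 and 0.596 to 2.25, with Myod1 at 0. Erythroid markers reached at most 0.0941 CPM, with Hbb-bt and Hba-a1 at 0. Epithelial markers summed to 37.9 to 125 CPM in siControl and 50.7 to 207 in siIMP2 libraries, and neural markers to 320 to 995 and 430 to 1000. In bulk RNA, fewer cells of a type and less RNA per cell cannot be told apart.

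The siRNA target differed between the 2 kinds of read. Igf2bp2 (chr16:22059009-22163299, minus strand, mm10) had exon levels of 134 to 167 CPM with siControl (median 151) and 18.4 to 28.2 CPM with siIMP2 (median 23.3), and the groups did not overlap. Its exon reads fell by 2.74 ± 0.10 on the log2 scale (SE, adjusted p = 2.39e-09, edgeR quasi-likelihood test with Benjamini-Hochberg adjustment, as for all adjusted p-values here). The siIMP2 mean was 15% of the siControl mean. Its outside levels were 37.1 to 49.6 CPM with siControl (median 46.9) and 24.4 to 46.8 CPM with siIMP2 (median 40.3), and the groups overlapped. The log2 fold change there was -0.31 ± 0.12 (SE, adjusted p = 0.0574), with -0.13 in the NA set and -0.62 in the RB160 set, and the siIMP2 mean was 80.5% of the siControl mean. This change did not pass the threshold of 0.05, but passed it without siControl_IL17 replicate 1 (adjusted p = 0.0396), siControl_IL17 replicate 2 (0.0427) or siIMP2 replicate 2 (0.0354). It passed also with upper-quartile factors (0.0360), with at least 1000 outside reads (0.0290) and among nuclear genes with 2 or more exons and 90% unique reads (0.0466), 3 of 11 other settings. The outside change stood 2.41 ± 0.14 (SE) above the exon change on the log2 scale in a direct test over both kinds of read (adjusted p = 2.97e-18).

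For the other 2 genes of the family neither the outside change nor the difference between the kinds of read passed. Igf2bp1 had outside levels of 24.6 to 33.3 CPM with siControl (median 28.9) and 19.4 to 27.9 CPM with siIMP2 (median 24.6), with log2 fold changes of -0.28 (adjusted p = 0.128) outside and 0.06 (adjusted p = 0.251) in exons. Igf2bp3 had outside levels of 52.2 to 65.3 CPM with siControl (median 57.1) and 47.0 to 57.9 CPM with siIMP2 (median 51.3). Its log2 fold changes were -0.17 (adjusted p = 0.226) outside and -0.40 (adjusted p = 6.65e-05) in exons. The groups overlapped for both genes outside exons, and the differences were -0.34 (adjusted p = 0.0808) and 0.21 (adjusted p = 0.24). Igf2bp1 and Igf2bp3 are made mainly in the embryo, and bind RNA through the same kinds of domain as IMP2. DESeq2 also called 0 of the 3 outside exons, and 2 had an unadjusted p under 0.05 in edgeR. The span of Igf2bp3 overlaps that of another expressed gene, and its counts are less certain.

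**Figure D1:**
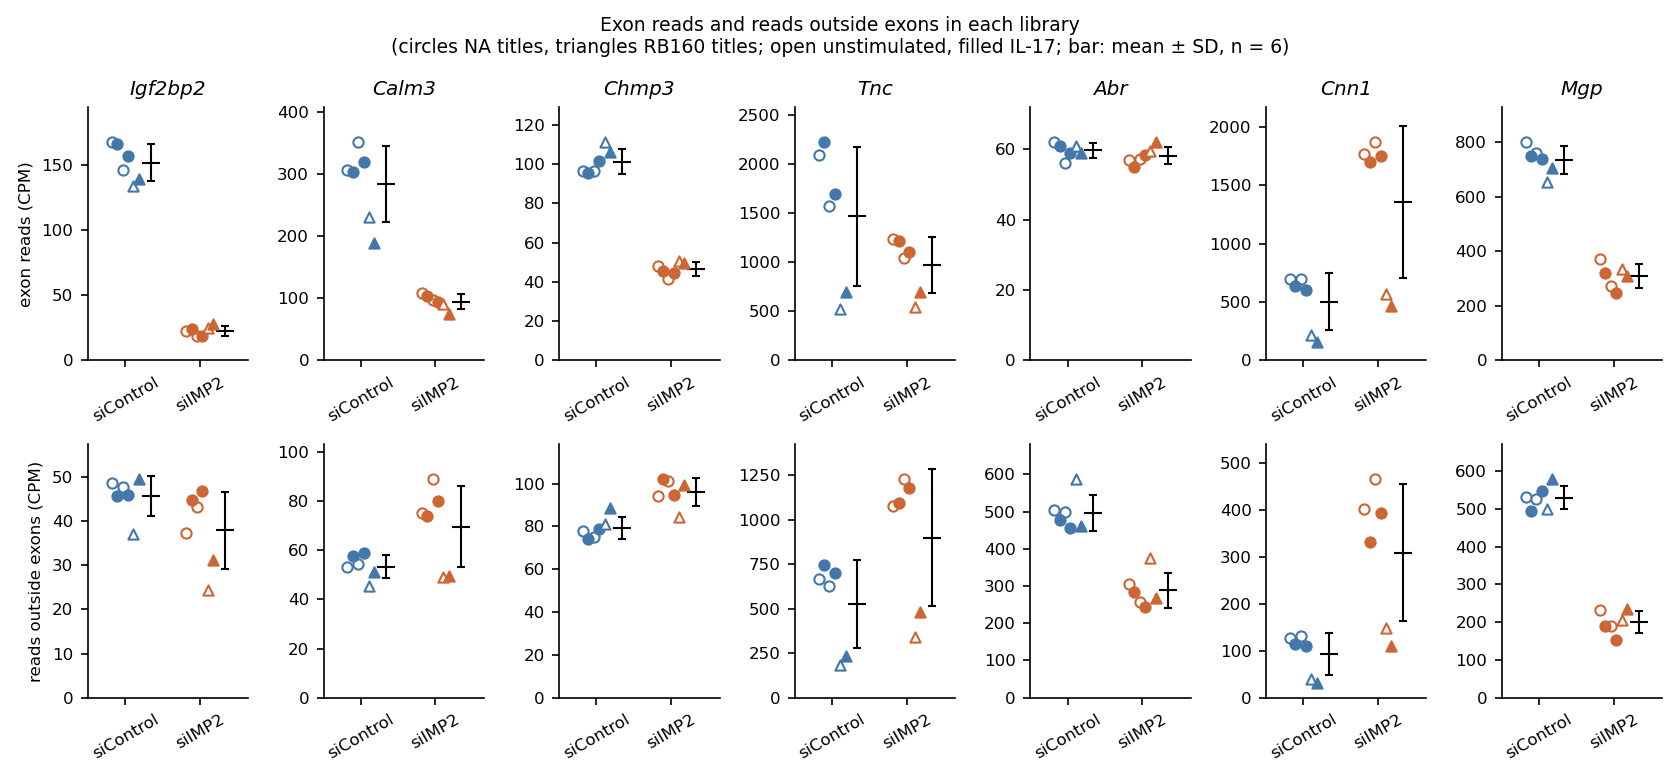
Exon reads (top row) and reads outside exons (bottom row) of 7 genes in each of the 12 libraries, in CPM on linear axes from 0; circles are NA titles, triangles RB160 titles, open symbols unstimulated and filled symbols IL-17, and bars give the mean ± SD (n = 6). The exon reads of Igf2bp2, Calm3 and Chmp3 lie lower in all 6 siIMP2 libraries than in any siControl library, while their outside reads overlap, and Abr has the reverse arrangement.

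Outside reads of 2759 of the 12373 genes (22.3%) differed between the siRNAs: 1392 were higher (11.3%) and 1367 lower (11%) with siIMP2. Of these 164 were at least 2-fold higher and 212 at least 2-fold lower, and 4115 genes had an unadjusted p under 0.05. In exon reads 6777 of the 13702 genes tested (49.5%) were called, 3307 higher (24.1%) and 3470 lower (25.3%). The median standard error was 0.124 on the log2 scale for outside reads and 0.0634 for exon reads, so a change of the same size was called less readily outside exons. When outside reads were scaled by the exon totals, which moves the median gene by 0.08 on the log2 scale, 2212 genes were called outside exons, 1484 higher and 728 lower (67.1% higher in place of 50.5%). Without the title-set term 407 genes were called. Members under 50 outside reads in the libraries of 1 siRNA numbered 357, of which 118 were called (33.1%, 39 higher and 79 lower), and of the 10646 with 100 or more in each siRNA 2451 were called (23%).

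The outside change differed from the exon change for 1038 of 11443 genes (9.07%), with 548 above it (4.79%) and 490 below it (4.28%). Both changes come from the same libraries, so each gene's values are set side by side and the difference is tested directly. Among the 548 genes above, the median log2 fold change was 0.19 outside exons and -0.23 in exons. Exon reads were called lower for 347 of them, of which 291 had no call outside exons, and outside reads were called higher for 200. Among the 490 genes below, the medians were -0.17 outside and 0.22 in exons. Exon reads were called higher for 296, of which 224 had no call outside exons, and outside reads were called lower for 162. Few of the 1038 were called in opposite directions: 31 genes were higher outside and lower in exons, and 15 were lower outside and higher in exons. Neither kind of read had a call of its own for 79. The median gene length was 30.7 kb for the genes above and 30.1 kb for those below, against 25.2 kb over all 11443, and outside reads were a median of 6.00% and 9.77% of their reads, against 7.28%. Scaled by the exon totals, 625 differences were called, 520 above and 105 below (83.2% above in place of 52.8%). With at least 1000 outside reads 374 were above and 615 below (37.8% above). Upper-quartile factors gave 490 above and 638 below (43.4% above), so the direction with more calls depended on the setting. Calls of this difference depended on the model and the tool. Of 74 called for the listed or named genes, 57 were lost without the title-set term. In limma on the log2 ratio 45 were lost, in DESeq2 33 and with exon scaling 25. Losses without the title-set term are not marked gene by gene in what follows.

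**Figure D2:**
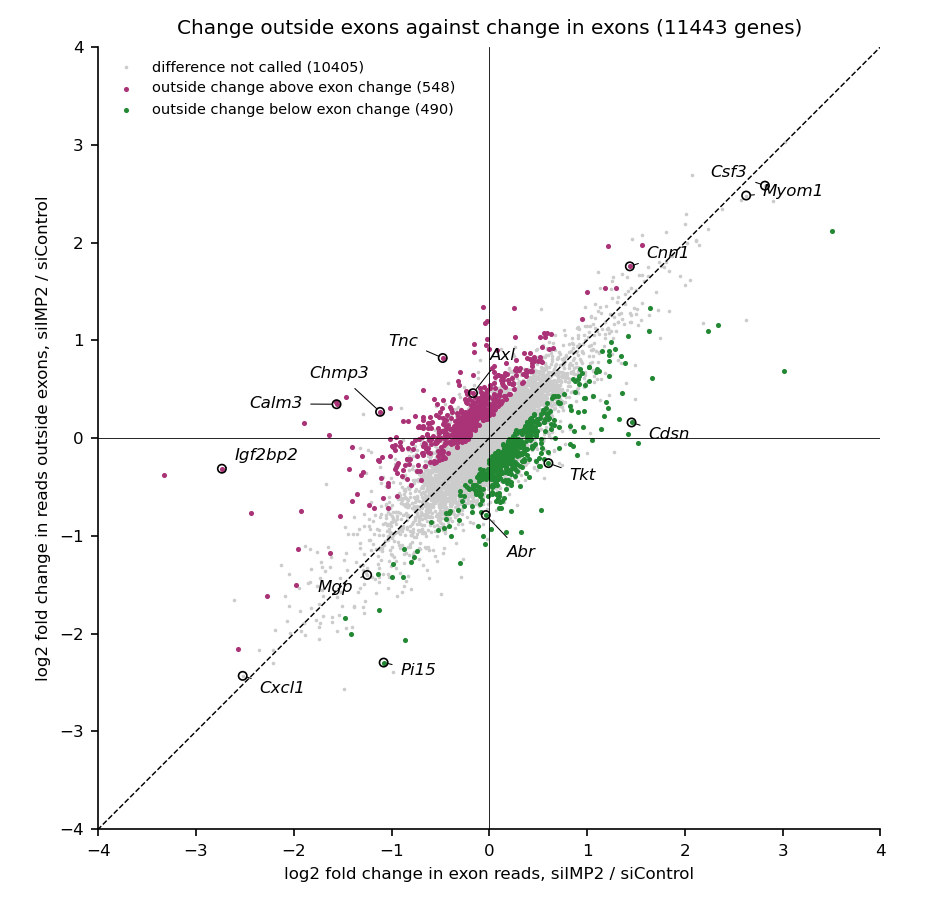
Log2 fold change (siIMP2 over siControl) in reads outside exons against that in exon reads for the 11443 genes tested for both; each point is a gene, the dashed line marks equal change, and coloured points are the 548 and 490 genes whose difference was called. Igf2bp2, Calm3 and Chmp3 lie left of the line, Cdsn, Tkt and Abr to its lower right, and Cnn1, Mgp and Cxcl1 lie near it.

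In several other genes exon reads fell and the outside change stood above the exon change. Calm3 encodes calmodulin, the calcium sensor of many kinases and phosphatases, and had exon levels of 189 to 352 CPM with siControl (median 305) and 74.8 to 109 CPM with siIMP2 (median 95). Its outside levels were 45.5 to 58.9 CPM with siControl (median 53.7) and 49.3 to 89.0 CPM with siIMP2 (median 74.7). The groups were apart in exons and overlapped outside them. The log2 fold changes were -1.56 ± 0.07 (SE, adjusted p = 6.69e-09) in exons and 0.35 ± 0.10 (SE, adjusted p = 0.0122) outside, the latter with 0.50 in the NA set and 0.04 in the RB160 set, and their difference was 1.90 ± 0.11 (SE, adjusted p = 2.97e-18). Chmp3 encodes a subunit of ESCRT-III, the complex that cuts membrane necks, and had exon levels of 95.5 to 111 CPM with siControl (median 99.1) and 41.3 to 50.7 CPM with siIMP2 (median 46.7). Outside exons its levels were 74.0 to 88.4 CPM with siControl (median 78.1) and 84.3 to 102 CPM with siIMP2 (median 97.1), with a small overlap between the groups. Its log2 fold changes were -1.12 ± 0.04 (SE, adjusted p = 2.39e-09) in exons and 0.27 ± 0.08 (SE, adjusted p = 0.0171) outside, and their difference was 1.38 ± 0.08 (SE, adjusted p = 1.33e-17). The outside calls of Calm3 and of Chmp3 were lost without siIMP2 replicate 2, that of Chmp3 also in DESeq2, and the differences were not.

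Scarb1, the receptor for high-density lipoprotein, had exon levels of 83.9 to 108 CPM with siControl (median 93.1) and 44.7 to 50.3 CPM with siIMP2 (median 47.5), with no overlap. Outside exons Scarb1 had 129 to 217 CPM with siControl (median 195) and 142 to 205 CPM with siIMP2 (median 168), with overlap. The log2 fold changes were -0.98 (adjusted p = 2.21e-08) in exons and -0.09 (adjusted p = 0.441) outside, a difference of 0.89 ± 0.07 (SE, adjusted p = 6.52e-13). Tmem123, a membrane protein, had exon levels of 150.4 to 202 CPM with siControl (median 179) and 80.9 to 99.4 CPM with siIMP2 (median 85.6), with no overlap. Its outside levels were 17.8 to 28.8 CPM with siControl (median 25.8) and 25.9 to 35.4 CPM with siIMP2 (median 29.9), with overlap. It had log2 fold changes of -1.01 (adjusted p = 1.5e-07) in exons and 0.31 (adjusted p = 0.0766) outside, a difference of 1.32 ± 0.12 (SE, adjusted p = 2.22e-11). Chosen after their values were seen, Mettl3, the catalytic subunit of the N6-methyladenosine writer, and Pdia3, a disulfide isomerase of the endoplasmic reticulum, had the same order. Exon reads fell by 0.60 for Mettl3 and by 0.58 for Pdia3 on the log2 scale (adjusted p = 1.25e-06 and 4.86e-05). Their outside log2 fold changes were -0.01 and 0.02, and the differences were 0.58 (adjusted p = 0.000186) and 0.59 (adjusted p = 9.87e-05), the latter lost in limma.

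Tnc, the matrix glycoprotein tenascin-C, went in opposite directions. Outside levels were 182 to 744 CPM with siControl (median 648) and 343 to 1227 CPM with siIMP2 (median 1084). Its exon levels were 528 to 2229 CPM with siControl (median 1637) and 540.2 to 1237 CPM with siIMP2 (median 1074). Levels were lower in the RB160 libraries of both siRNAs, so the groups overlapped over all libraries, and within each title set the siIMP2 libraries were higher outside exons. Outside reads rose by 0.82 ± 0.08 (SE, adjusted p = 3.54e-08) on the log2 scale, with 0.74 in the NA set and 0.97 in the RB160 set. Exon reads fell by 0.48 (adjusted p = 0.00976), with -0.71 in the NA and 0.02 in the RB160 set. The difference was 1.30 ± 0.08 (SE, adjusted p = 1.93e-16). Tnc overlaps another expressed gene, and 76.0% of its reads were placed uniquely. Axl, a receptor tyrosine kinase, was also called in opposite directions, with 0.46 (adjusted p = 0.00029) outside and -0.17 (adjusted p = 0.0315) in exons, and was chosen after its values were seen. Fam210a, a mitochondrial protein, likewise had outside levels of 31.5 to 69.6 CPM with siControl (median 66.0) and 51.2 to 130.2 CPM with siIMP2 (median 96.5), and exon levels of 44.8 to 64.0 CPM with siControl (median 51.5) and 35.4 to 55.6 CPM with siIMP2 (median 39.3). The siRNAs were apart within each title set in both. Its log2 fold changes were 0.68 (adjusted p = 7.85e-06) outside and -0.30 (adjusted p = 0.000166) in exons, a difference of 0.98 ± 0.10 (SE, adjusted p = 5.4e-10).

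In other genes exon reads rose and the outside change stood below the exon change. Cdsn, an adhesion protein of cornified epidermis, had exon levels of 40.2 to 51.5 CPM with siControl (median 45.1) and 96.2 to 191 CPM with siIMP2 (median 107). Outside exons Cdsn had 42.7 to 123 CPM with siControl (median 105) and 58.9 to 120.1 CPM with siIMP2 (median 104). The groups were apart in exons and overlapped outside. The log2 fold changes were 1.45 (adjusted p = 5.1e-06) in exons and 0.16 (adjusted p = 0.354) outside, a difference of -1.27 ± 0.10 (SE, adjusted p = 4.39e-14). Tkt, the transketolase of the pentose phosphate pathway, had exon levels of 168 to 301 CPM with siControl (median 260.0) and 278 to 429.7 CPM with siIMP2 (median 393). Its outside levels were 231 to 297 CPM with siControl (median 279) and 196 to 261 CPM with siIMP2 (median 231). The siRNAs were apart within each title set in both. Its exon reads rose by 0.60 (adjusted p = 5.29e-07) and its outside reads fell by 0.26 (adjusted p = 0.00864), a difference of -0.87 ± 0.08 (SE, adjusted p = 3.5e-12). The outside call of Tkt was lost with exon scaling and without the 2 RB160 IL-17 libraries. Cdkn1a, the cell cycle inhibitor p21, had log2 fold changes of 0.57 (adjusted p = 1.31e-07) in exons and 0.07 (adjusted p = 0.504) outside (difference -0.50, adjusted p = 8.56e-07), and was chosen after its values were seen.

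For other genes outside reads fell and the exon change was smaller or did not pass. Abr, a GTPase-activating protein (chr11:76416734-76622314, minus strand), had outside levels of 456 to 587 CPM with siControl (median 488) and 245 to 375 CPM with siIMP2 (median 276), and the groups did not overlap. Its exon reads were 56.1 to 62.0 CPM with siControl (median 60.0) and 54.9 to 62.1 CPM with siIMP2 (median 57.8), with overlap. Outside reads fell by 0.79 (SE 0.08, adjusted p = 2.94e-08), with -0.83 in the NA set and -0.71 in the RB160 set, the exon log2 fold change was -0.04 (adjusted p = 0.477) and the difference -0.76 ± 0.08 (SE, adjusted p = 2.24e-10). Galnt11, which starts O-glycosylation, had outside levels of 222 to 388 CPM with siControl (median 247) and 147 to 208 CPM with siIMP2 (median 154), again apart, with log2 fold changes of -0.72 (adjusted p = 4.33e-08) outside and 0.10 (adjusted p = 0.267) in exons. Exon reads of Abr and Galnt11 did not pass. Zbtb38, a zinc finger protein that binds methylated DNA, had outside levels of 297 to 569 CPM with siControl (median 536) and 243 to 315 CPM with siIMP2 (median 299), with overlap in the RB160 set. Its log2 fold changes were -0.66 (adjusted p = 5.91e-06) outside exons and 0.11 in exons, just inside the threshold (adjusted p = 0.04998), and their difference was -0.77 ± 0.08 (SE, adjusted p = 4.18e-10). Pi15 fell in both kinds of read, by 2.30 outside and 1.08 in exons (difference adjusted p = 3.97e-13), with 38.2% of its reads placed uniquely. For Abr 80.7% and for Galnt11 77.5% of reads were unique.

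Most genes of the contractile apparatus and other targets of serum response factor (SRF) rose outside exons. SRF is a transcription factor that binds the CArG box in promoters of actin, myosin and calponin genes and acts with cofactors that sense free actin. Of the 25 listed genes with enough outside reads, 23 were higher and 0 lower, with a median log2 fold change of 0.71, against 11.3% higher and a median of 0.00 over all 12373 genes. In exon reads 24 were higher and 1 lower (median 0.63), against 24.1% and 25.3% of all genes tested. For 22 of the 25 (88%) every siIMP2 library lay above every siControl library within both title sets, which held for 6.97% of all members. The list had been seen to move in exon reads of these libraries and is not independent evidence.

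Cnn1, calponin of smooth muscle, had outside levels of 32.0 to 131 CPM with siControl (median 112) and 109 to 466 CPM with siIMP2 (median 363). Levels were lower in the RB160 libraries, and within each title set the groups did not overlap. The log2 fold changes were 1.76 ± 0.08 (SE, adjusted p = 3.06e-14) outside exons and 1.44 (adjusted p = 1.77e-09) in exons. Fhl1, a LIM domain protein of muscle, had outside levels of 217 to 616 CPM with siControl (median 567) and 645 to 1952 CPM with siIMP2 (median 1661), with no overlap and a log2 fold change of 1.53 ± 0.07 (SE, adjusted p = 1.34e-13). Actg2 and Acta2 encode smooth muscle actins. Actg2 had outside levels of 122 to 150.3 CPM with siControl (median 140.2) and 300 to 520.4 CPM with siIMP2 (median 415). Acta2 had 613 to 869 CPM with siControl (median 758) and 1399.7 to 2155 CPM with siIMP2 (median 1777), and neither gene's groups overlapped. They rose by 1.54 ± 0.08 and 1.24 ± 0.08 (SE) outside exons (adjusted p = 1.34e-13 and 1.24e-11) and by 1.29 and 1.04 in exons. Itga5, the fibronectin receptor subunit, Tagln, transgelin, and Tpm1, a tropomyosin, chosen after their values were seen, rose by 1.19, 1.05 and 0.63 (adjusted p = 6.65e-12, 1.06e-10 and 5.88e-07) and by 1.32, 0.91 and 0.48 in exons. At the low end, Actg1 and Actb, the cytoplasmic actins, had 0.08 (adjusted p = 0.534) and 0.25 (adjusted p = 0.0564) outside exons and did not pass.

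The outside change was above the exon change for 9 of the 25 contractile genes and below it for 1, against 4.79% and 4.28% over all genes tested. Myl9, a myosin light chain, rose by 1.49 outside and 1.00 in exons (difference 0.48, adjusted p = 0.000246), and Tpm2, a tropomyosin, by 0.93 and 0.54 (difference 0.38, adjusted p = 0.00013). For Fhl1 the difference was 0.35 (adjusted p = 0.000328) and for Cnn1 0.32 (adjusted p = 0.00585). Actg1 differed by 0.35 (adjusted p = 0.00644), with exon reads that fell (-0.27, adjusted p = 0.00112). Palld, an actin-binding scaffold, was the gene below, with 0.60 outside and 0.86 in exons (difference -0.25, adjusted p = 0.0138). In limma on the log2 ratio the differences of Myl9, Cnn1, Actg1 and Palld were lost, and those of Tpm2 and Fhl1 were not. That of Cnn1 was lost also in the NA libraries alone, that of Actg1 in DESeq2 and that of Palld with exon scaling. Myl9, Tpm2, Actg1, Actb and Palld were chosen after their values were seen.

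**Figure D3:**
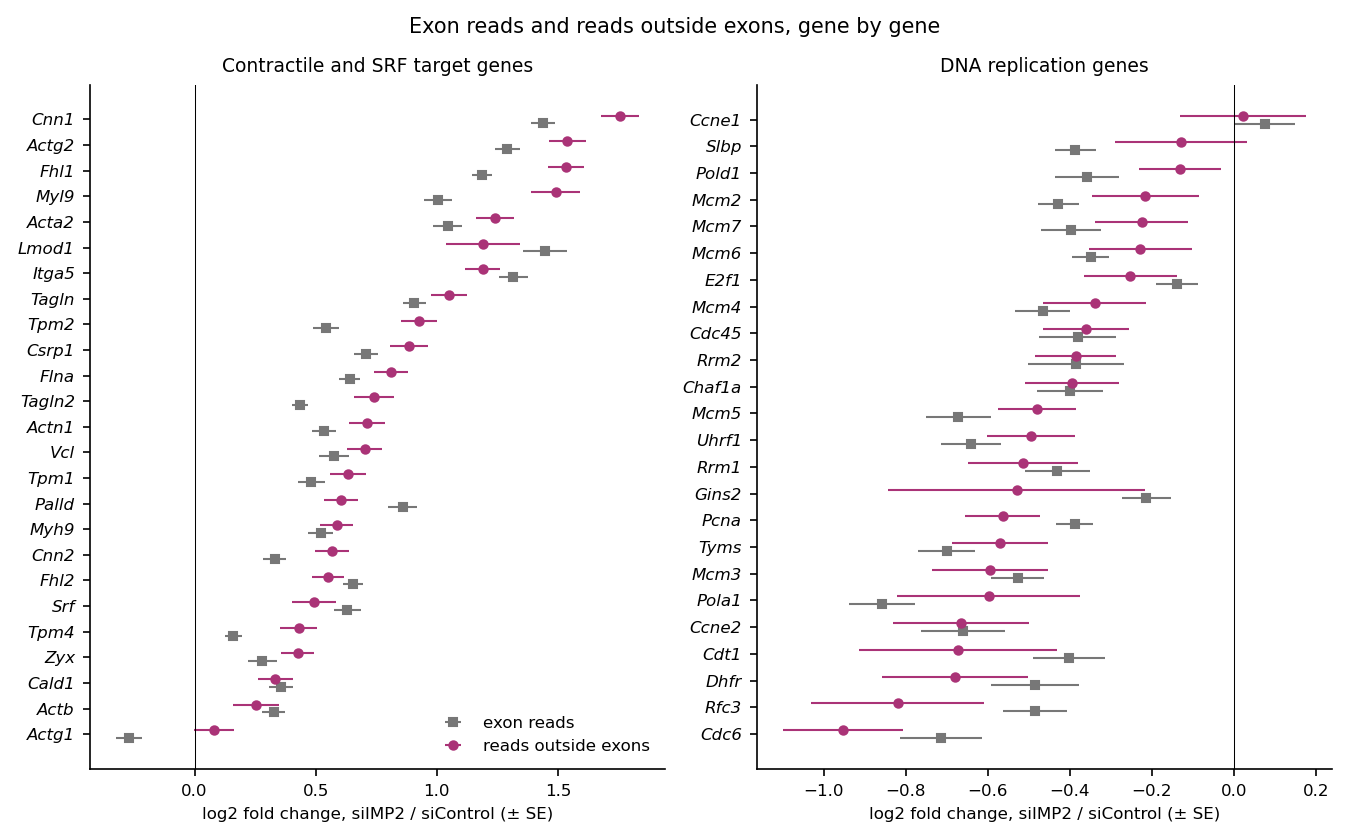
Log2 fold change ± SE (siIMP2 over siControl) of each member of 2 lists, in exon reads (grey squares) and in reads outside exons (circles). All 25 contractile and SRF target genes lie right of 0 outside exons and 24 do in exons; 23 of the 24 DNA replication genes lie left of 0 in both.

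Promoter sequence from RefSeq (GRCm38.p6, from 250 bases before to 50 after each annotated start) was searched on both strands, and 22 of the 26 listed contractile genes matched by symbol. A CArG box stood in the promoters of 7 of the 22 (31.8%), against 488 of 27025 genes (1.81%) and 155 of the 9105 matched genes with enough outside reads (1.7%). The list was made from known SRF targets, so this share describes the list. The windows of 30 bases that follow, from genes whose outside reads rose, show the box in capitals, 5′ to 3′ along the gene's strand. A match is a description of the sequence and not a measured site. All but Fhl1 were chosen after their matches were seen.
Fhl1, chrX:56779571-56779600, plus strand: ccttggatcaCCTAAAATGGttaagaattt
Cnn2, chr10:79988534-79988563, plus strand: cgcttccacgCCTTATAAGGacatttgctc
Myl9, chr2:156775293-156775322, plus strand: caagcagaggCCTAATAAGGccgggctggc
Vcl, chr14:20929161-20929190, plus strand: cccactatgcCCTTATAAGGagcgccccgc
Fhl2, chr1:43163973-43164002, minus strand: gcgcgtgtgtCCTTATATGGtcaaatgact
Srf, chr17:46556225-46556254, minus strand: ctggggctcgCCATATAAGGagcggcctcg

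The 6 genes shown had log2 fold changes outside exons of 1.53 for Fhl1, 0.57 for Cnn2, 1.49 for Myl9, 0.70 for Vcl, 0.55 for Fhl2 and 0.49 for Srf, with adjusted p-values of 1.34e-13, 1.07e-06, 5.06e-11, 4.85e-08, 8.78e-07 and 0.000182. Vcl encodes vinculin of focal adhesions and Srf the factor itself. The promoters of Acta2 and Cnn1, which rose by 1.24 and 1.76, held no match, which says only that these letters are not in the window searched.

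Myom1, Coro6 and Edn1, which are not on the contractile list, were also among the genes of smallest p that rose outside exons. Myom1, a protein of the sarcomere M-band, had outside levels of 18.7 to 39.1 CPM with siControl (median 26.7) and 73.8 to 222 CPM with siIMP2 (median 169.9), with no overlap, and rose by 2.48 ± 0.12 (SE, adjusted p = 1.48e-13) outside and 2.63 in exons. Of its reads 62.7% were unique, and skeletal muscle markers were near 0 in all libraries. Coro6, a coronin that binds actin, had outside levels of 37.1 to 151 CPM with siControl (median 123) and 134 to 569 CPM with siIMP2 (median 475) and rose by 1.86 ± 0.09 (SE, adjusted p = 4.68e-14) outside and 1.87 in exons. Edn1, the precursor of the vasoconstrictor endothelin-1, had 5.34 to 24.6 CPM with siControl (median 17.7) and 23.9 to 110.2 CPM with siIMP2 (median 93.1) and rose by 2.29 ± 0.12 (SE, adjusted p = 4.78e-13) outside and 2.01 in exons. For Coro6 and Edn1 siIMP2_IL17 replicate 3 reached down to the siControl levels, the other 5 siIMP2 libraries lay above all siControl libraries, and within each title set the siRNAs were apart.

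Targets of YAP and TEAD, the transcriptional arm of the Hippo pathway, were more often higher than lower. Of 19 listed genes 12 were higher and 0 lower outside exons (median 0.32), and 14 higher and 1 lower in exons (median 0.40), against 11.3% higher and 11% lower of all genes outside exons and 24.1% and 25.3% in exons. For 10 of the 19 (52.6%) siIMP2 lay above siControl in both title sets, against 6.97% of all members. Ankrd1, a stretch-induced repeat protein, had outside levels of 691 to 1045 CPM with siControl (median 808) and 1520.1 to 1688 CPM with siIMP2 (median 1583), with no overlap and a log2 fold change of 0.91 ± 0.08 (SE, adjusted p = 7.89e-09). F3, tissue factor of coagulation, had 612 to 781 CPM with siControl (median 689) and 921 to 1525 CPM with siIMP2 (median 1426), with no overlap and a log2 fold change of 0.89 ± 0.09 (SE, adjusted p = 5.37e-08). Gadd45b, a growth arrest and DNA damage gene, rose by 0.88 ± 0.07 (SE, adjusted p = 2.23e-09) outside and 0.94 in exons.

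Here the differences mostly had the other sign: the outside change was below the exon change for 5 of the 19 and above it for 1, Axl. Over all genes tested the shares were 4.28% below and 4.79% above. Ctgf and Cyr61, secreted matricellular proteins, rose by 1.10 and 0.29 outside exons and by 1.63 and 0.84 in exons, with differences of -0.51 (adjusted p = 0.000188) and -0.55 (adjusted p = 2.37e-06). For Ankrd1 and F3 the exon changes were 1.29 and 1.22, with differences of -0.37 (adjusted p = 0.000396) and -0.32 (adjusted p = 0.00118). The differences of Ankrd1 and F3 were lost with exon scaling, and those of Ankrd1, F3 and Ctgf in limma on the log2 ratio. The outside call of Cyr61 was lost in the NA libraries alone and with upper-quartile factors. Ctgf, Cyr61 and Axl were chosen after their values were seen. The TEAD core (GGAATG, either strand) stood in the promoters of 8 of 14 matched genes of the list (57.1%), against 4481 of 27025 genes (16.6%). It stood in 1313 of the 9105 matched genes with enough outside reads (14.4%) and in 8 of 22 contractile genes (36.4%). The list was made from known targets of YAP and TEAD, so this share describes the list. The windows of Ankrd1 and Axl are shown with the core in capitals, as the gene named by the rule and as the gene with opposite calls.
Ankrd1, chr19:36120037-36120066, minus strand: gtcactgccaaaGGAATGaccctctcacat
Ankrd1, chr19:36119950-36119979, minus strand: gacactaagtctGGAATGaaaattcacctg
Axl, chr7:25788949-25788978, minus strand: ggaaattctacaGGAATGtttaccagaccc

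IL-17 target genes were more often lower than higher, outside exons as well as in them. Of the 16 with enough outside reads 9 were lower and 3 higher (median -0.54), against 11% and 11.3% of all genes. Their outside median was -0.75 in the NA set and -0.14 in the RB160 set. Of 25 tested in exons 15 were lower and 5 higher (median -1.0), against 25.3% and 24.1%. Cxcl1, a neutrophil chemokine, had outside levels of 83.4 to 407 CPM with siControl (median 151) and 7.23 to 89.8 CPM with siIMP2 (median 28.9), and the siRNAs were apart within each title set. Its log2 fold changes were -2.43 ± 0.13 (SE, adjusted p = 7.28e-13) outside and -2.52 (adjusted p = 7.37e-08) in exons, and the difference between them was 0.03 (adjusted p = 0.925). Ccl2 and Ccl7 encode monocyte chemokines. Ccl2 had outside levels of 82.2 to 370.2 CPM with siControl (median 196) and 20.5 to 94.1 CPM with siIMP2 (median 57.4). Ccl7 had 101 to 459.6 CPM with siControl (median 199.8) and 31.3 to 116 CPM with siIMP2 (median 63.1). They fell by 2.01 and 1.86 outside exons (adjusted p = 2.37e-10 and 5.76e-10). Il6 had 2.35 to 55.5 CPM with siControl (median 28.0) and 1.26 to 17.6 CPM with siIMP2 (median 5.90), with overlap, and log2 fold changes of -1.87 ± 0.33 (SE, adjusted p = 0.000121) outside and -2.07 (adjusted p = 8.48e-05) in exons. Slc7a2, a transporter of cationic amino acids, Bcl3, a nuclear IkB protein, and Lif, a cytokine of the IL-6 family, chosen after their values were seen, fell by 1.42, 1.13 and 0.77 outside exons. The exon change was smaller for Slc7a2 (-1.0, difference -0.47, adjusted p = 0.000332, lost in limma), and for Lif it did not pass (-0.44, adjusted p = 0.0637).

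Among regulators of the response, Nfkbiz, the co-activator IkB-zeta, had log2 fold changes of -0.32 (adjusted p = 0.0192) outside and -0.34 (adjusted p = 0.00416) in exons. The outside call was lost without siControl replicate 1, siControl_IL17 replicate 2, siIMP2_IL17 replicate 1 or siIMP2 replicate 3, and with exon scaling. Cebpb, a transcription factor with 127 outside reads in all, had -0.85 (adjusted p = 0.0435) outside, a call kept on leaving out replicate 3 of siControl, siControl_IL17 or siIMP2_IL17 and lost on leaving out any other library. Its outside reads were 81 in the siControl and 46 in the siIMP2 libraries. Cebpb thus met the rule of 100 reads mostly through the group where it is higher, and its call rests partly on that choice. It is counted among the lower genes of its lists. Cebpd and the fibroblast proteoglycan Dcn had 38 and 83 outside reads and did not enter. The IL-17 target genes higher outside exons were Csf3, the granulocyte growth factor (2.58, adjusted p = 1.32e-05), Tnfaip3, an inhibitor of NF-kB signalling (0.58, adjusted p = 0.000575), and Il34, a macrophage growth factor (0.43, adjusted p = 0.00247), named for the small count. Csf3 had outside levels of 0.297 to 2.81 CPM with siControl (median 1.35) and 4.66 to 16.4 CPM with siIMP2 (median 8.43). Its 121 outside reads were 17 in the siControl and 104 in the siIMP2 libraries, so it met the rule of 100 reads only through the group where it is higher, and its call rests on that choice.

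Of the other genes that fell with smallest p, Mgp, the calcification inhibitor matrix Gla protein, had outside levels of 495 to 579 CPM with siControl (median 529) and 154 to 233 CPM with siIMP2 (median 198), with no overlap. It fell by 1.40 ± 0.08 (SE, adjusted p = 4.28e-12) outside and 1.25 in exons. Ldhb, a lactate dehydrogenase subunit, had 103 to 183 CPM with siControl (median 165) and 50.6 to 63.0 CPM with siIMP2 (median 54.8), again apart, and fell by 1.39 and 1.14. Gstt1, a glutathione transferase, fell by 1.84 and 1.48, and Serpina3g, a serine protease inhibitor, by 2.16 and 2.57 (adjusted p outside = 2.12e-11 and 4.28e-12).

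Fibroblast markers were more often lower than higher. Of 12 with enough outside reads 6 were lower and 1 higher (median -0.29), and of 15 in exons 10 were lower and 1 higher (median -0.50). Over all genes 11% were lower and 11.3% higher outside exons, and 25.3% and 24.1% in exons. Pdgfra, a growth factor receptor of mesenchyme, had outside levels of 9.04 to 84.3 CPM with siControl (median 13.4) and 1.90 to 28.9 CPM with siIMP2 (median 4.70), higher in the RB160 libraries of each siRNA and apart within each set. Its log2 fold changes were -1.61 ± 0.19 (SE, adjusted p = 3.41e-07) outside and -2.27 (adjusted p = 1.77e-09) in exons. Their difference of 0.60 (adjusted p = 0.0144) was lost without siControl or siIMP2_IL17 replicate 3, in the NA libraries alone and in DESeq2. Prrx1, a mesenchymal homeobox factor, had 327 to 592 CPM with siControl (median 345) and 164 to 325 CPM with siIMP2 (median 183), with no overlap, and fell by 0.90 outside and 0.91 in exons. Fbln1, a matrix glycoprotein, and Twist2, a mesenchymal transcription factor, fell by 1.12 and 0.62 outside exons, and Mmp2, a gelatinase, was the marker that rose (0.24, adjusted p = 0.00796), all chosen after their values were seen. Col3a1, type III collagen, fell by 0.99 and 0.79. Vim, vimentin, had log2 fold changes of 0.00 in both kinds of read (adjusted p = 0.977 and 0.983), and was chosen after its values were seen.

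Of 32 extracellular matrix genes 14 were higher and 9 lower outside exons (median 0.17), against 11.3% and 11% of all genes, and of 35 in exons 16 were higher and 12 lower, against 24.1% and 25.3%. Col4a1, a basement membrane collagen, rose by 0.75 ± 0.08 (SE, adjusted p = 1.23e-07) outside and 0.75 in exons, and Lama5, a laminin chain, by 0.67 ± 0.08 (SE, adjusted p = 2.87e-07) and 0.50. Loxl2, which cross-links collagen, rose by 1.03 outside and 0.52 in exons (difference 0.50, adjusted p = 0.0307), and Ogn and Col6a2, a matrix proteoglycan and a collagen VI chain, fell by 1.30 and 1.07 outside exons. Fbn1, fibrillin-1, had -0.02 (adjusted p = 0.904) outside and 0.29 (adjusted p = 0.00146) in exons (difference -0.31, adjusted p = 0.0083). The differences of Loxl2 and Fbn1 were lost in DESeq2 and in limma. Loxl2, Ogn, Col6a2 and Fbn1 were chosen after their values were seen. Of 16 genes of TGF-beta ligands, receptors and feedback 5 were higher and 3 lower outside exons (median 0.11), and of 17 in exons 8 were higher and 7 lower, beside the same shares over all genes. Tgfbr3, the co-receptor betaglycan, fell by 0.98 outside and 0.99 in exons, and Ltbp1, which tethers latent TGF-beta, rose by 0.28 and 0.39.

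Of 24 listed DNA replication genes 14 were lower, 0 higher and 10 did not pass outside exons (median -0.49), against 11% lower and 11.3% higher of all genes. The lower count was 11 to 16 on leaving out each library and 10 with exon scaling. In exons 23 were lower and 0 higher (median -0.42), against 25.3% and 24.1%, and edgeR and DESeq2 each called 0 differences between the kinds of read, with 3 at an unadjusted p under 0.05 in edgeR. Over all genes tested edgeR called the difference for 9.07%. Cdc6, which loads the replicative helicase, had outside levels of 18.4 to 66.8 CPM with siControl (median 25.1) and 8.43 to 37.9 CPM with siIMP2 (median 11.1) and fell by 0.95 (adjusted p = 2.26e-05). The siRNAs overlapped over all libraries and were apart within each title set, as they were for Pcna, the polymerase clamp, and Mcm5, a helicase subunit, which fell by 0.56 and 0.48. Of 20 mitosis genes 8 were lower and 1 higher outside exons (median -0.30), and 16 lower and 0 higher in exons. Their lower count was 5 without siControl replicate 3 or siControl_IL17 replicate 2 and 4 without siIMP2_IL17 replicate 3. Top2a, a topoisomerase, and Ttk, a checkpoint kinase, fell by 0.62 and 0.90. Tpx2, a spindle assembly factor, had 54.9 to 113 CPM with siControl (median 92.3) and 60.2 to 183 CPM with siIMP2 (median 172) and rose by 0.63 (adjusted p = 1.98e-05) outside exons, and its exon change was 0.12 (adjusted p = 0.256) and the difference 0.50 (adjusted p = 0.000664), lost in limma.

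Targets of p53 were more often higher: of 18 listed 8 were higher and 1 lower outside exons (median 0.23) and 15 higher and 1 lower in exons, against 11.3% and 11% of all genes outside exons and 24.1% and 25.3% in exons. The higher count was 5 without siIMP2 or siControl_IL17 replicate 3. Pmaip1 and Bbc3, pro-apoptotic BH3 proteins, rose by 1.17 (adjusted p = 8.73e-07) and 0.64 (adjusted p = 1.73e-06) outside exons, and Pmaip1 had 14.5 to 25.3 CPM with siControl (median 19.2) and 28.2 to 51.6 CPM with siIMP2 (median 45.4), with no overlap. Sesn2, a stress-induced inhibitor of mTORC1, rose by 0.58 (adjusted p = 0.000205). The differences called in this list were 4 below and 1 above the exon change, against 4.28% and 4.79% over all genes tested. Zmat3, an RNA-binding target of p53, had 0.48 outside and 0.11 in exons (difference 0.38, adjusted p = 0.0036). Mdm2, the p53 ubiquitin ligase, had 0.05 (adjusted p = 0.686) and 0.27 (adjusted p = 0.000254), and Btg2, an antiproliferative gene, -0.11 (adjusted p = 0.664) and 0.36 (adjusted p = 0.000203). These 3 differences were lost in DESeq2 and in limma, and the genes were chosen after their values were seen. Of 19 genes of the unfolded protein response and ATF4 9 were higher and 1 lower outside exons (median 0.21), and 9 higher and 4 lower in exons, beside those shares over all genes. Trib3, a pseudokinase induced by stress, had 32.5 to 57.1 CPM with siControl (median 42.7) and 76.7 to 113 CPM with siIMP2 (median 90.2), with no overlap, and rose by 1.09 (adjusted p = 7.07e-08). Phgdh, the first enzyme of serine synthesis, rose by 0.43 (adjusted p = 0.000277). Calr, a chaperone of the endoplasmic reticulum, and Ddit3, the stress factor CHOP, chosen after their values were seen, had -0.05 (adjusted p = 0.737) and 0.27 (adjusted p = 0.0127) outside exons and -0.37 and 0.62 in exons, with differences of 0.33 (adjusted p = 0.00382) and -0.35 (adjusted p = 0.000495), both lost in limma.

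Of 16 glycolysis genes 9 were higher and 0 lower outside exons (median 0.34, but 0.06 in the RB160 set), and 12 higher and 2 lower in exons, against 11.3% and 11% of all genes outside exons and 24.1% and 25.3% in exons. Without 1 library the count ranged from 5, without siControl_IL17 or siIMP2 replicate 2, to 12, without siControl_IL17 replicate 3. Gapdh, the best known of them, rose by 0.61 (adjusted p = 4.02e-07) with 20.4% of its reads unique. Pfkp, a phosphofructokinase, and Slc2a1, the glucose transporter GLUT1, rose by 0.40 (adjusted p = 0.00328) and 0.41 (adjusted p = 0.00986) outside and by 0.37 and 0.32 in exons, and the outside call of Slc2a1 was lost in the NA libraries alone. Pdk1, an inhibitory kinase of pyruvate dehydrogenase, and Gpi1, a glucose phosphate isomerase, chosen after their values were seen, fell in exons by 0.56 and 0.32 with outside changes of 0.40 (adjusted p = 0.209) and 0.23 (adjusted p = 0.0513). Their differences were 1.00 (adjusted p = 0.000107) and 0.55 (adjusted p = 5.27e-06). Of 18 oxidative phosphorylation genes 0 were called outside exons by edgeR or DESeq2 (median 0.03), with 2 at an unadjusted p under 0.05 in edgeR, and 2 were higher and 3 lower in exons. Of 18 cholesterol synthesis genes 1 was higher and 1 lower outside exons. These were Msmo1 (0.32, adjusted p = 0.0492) and Cyp51 (-0.41, adjusted p = 0.0299). Both calls were lost without replicate 3 of siControl, siControl_IL17 or siIMP2 and without replicate 2 of siControl or siIMP2_IL17. They were lost also in DESeq2, in the NA libraries alone and without the 2 RB160 IL-17 libraries.

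Of 18 immediate early genes 2 were higher and 5 lower outside exons, and of 23 in exons 13 were higher and 5 lower. Of all genes 11.3% were higher and 11% lower outside exons, and 24.1% and 25.3% in exons. In the list 5 differences were below and 1 above, against 4.28% and 4.79% over all genes tested. The higher count was 1 without replicate 1 or 3 of siIMP2, replicate 1 of siIMP2_IL17, replicate 2 of siControl or replicate 2 or 3 of siControl_IL17. Fos and Egr1, transcription factors of early growth signals, fell outside exons by 1.38 and 1.22 (adjusted p = 7.28e-05 and 0.00011), and by 1.26 and 0.77 in exons. Klf6, a zinc finger factor, had 52.3 to 87.2 CPM with siControl (median 79.9) and 116 to 160.2 CPM with siIMP2 (median 126), with no overlap, and rose by 0.81 outside and 0.42 in exons (difference 0.39, adjusted p = 0.00374, lost in DESeq2 and in limma). Ier3, an early gene of cell survival, fell outside exons by 0.43 with an exon change of 0.06 (adjusted p = 0.506), a fall not called with exon scaling. Egr3, a relative of Egr1, fell by 1.35 and 1.46, with no overlap outside exons. Dusp1, a MAP kinase phosphatase, had 0.19 (adjusted p = 0.352) outside and 0.66 (adjusted p = 8.44e-07) in exons (difference -0.47, adjusted p = 0.00353, lost in DESeq2). Ier3, Egr3 and Dusp1 were chosen after their values were seen. Myc had 0.18 (adjusted p = 0.134) outside and 0.25 (adjusted p = 0.0222) in exons. Its exon call was lost in the NA libraries alone, without the 2 RB160 IL-17 libraries and without the title-set term.

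Lists of RNA regulators are read against 11% lower and 11.3% higher over all genes outside exons and 25.3% and 24.1% in exons. For the difference between the kinds of read the shares over all genes tested were 4.28% below and 4.79% above. Of 23 splicing regulators with detained introns or poison exons 3 were lower and 0 higher outside exons, and 11 lower and 0 higher in exons. The count of 3 was 1 without replicate 1 or 3 of siIMP2, replicate 1 of siIMP2_IL17, replicate 2 or 3 of siControl_IL17 or replicate 3 of siControl, and 5 without replicate 2 of siIMP2. Srsf4 fell by 0.37 outside (adjusted p = 0.00181) with an exon change of -0.09 (adjusted p = 0.0935). Srsf3, another splicing factor, and Ddx5, an RNA helicase, had -0.28 (adjusted p = 0.0402) and -0.19 (adjusted p = 0.0472), with both calls lost in the NA libraries alone and with exon scaling. In this list 4 differences were above the exon change and 1 below. Srsf1 and Tra2b, splicing factors chosen after their values were seen, fell in exons by 0.29 and 0.21 with outside changes of 0.04 and 0.06. Of 13 writers, erasers and readers of N6-methyladenosine 0 were called outside exons by edgeR or DESeq2 (1 at an unadjusted p under 0.05 in edgeR), 3 were higher and 2 lower in exons, and the difference was called for Mettl3 alone. Of 12 snoRNA host genes 0 were called outside exons by edgeR or DESeq2 (1 at an unadjusted p under 0.05 in edgeR) and 7 were higher and 1 lower in exons. Of 11 RNA-binding regulators of inflammatory mRNA 2 were lower outside, Zfp36l1 (-0.85, adjusted p = 2.95e-06) and Zfp36l2 (-0.38, adjusted p = 0.00151), which promote decay of AU-rich mRNA. Of 8 interferon-stimulated genes 1 was lower outside exons, Irf1 (-0.64, adjusted p = 0.00815), a call lost without siIMP2_IL17 replicate 3. Of 14 tested in exons 9 were lower and 0 higher (median -0.56), against 25.3% and 24.1% of all genes. Usp18, a feedback inhibitor of interferon signals, had -0.40 (adjusted p = 0.37) outside exons and -1.09 (adjusted p = 0.035) in exons, a call lost on leaving out 7 of the 12 libraries in turn (log2 fold changes from -1.37 to -0.59 over all settings) and in DESeq2.

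Of 12 RNAs reported to bind IMP proteins 2 were higher and 2 lower outside exons (median 0.02), against 11.3% and 11% of all genes. Of 15 in exons 3 were higher and 4 lower (median -0.05), against 24.1% and 25.3%. The genes lower outside exons were Hmga2 and Cebpb, the latter described, with the limit of its choice, among the IL-17 targets. Hmga2, a chromatin protein of embryonic growth, had outside levels of 374 to 1162 CPM with siControl (median 1125) and 379 to 737 CPM with siIMP2 (median 681) and log2 fold changes of -0.43 (adjusted p = 0.00338) outside, with -0.69 in the NA set and 0.12 in the RB160 set, and -0.70 (adjusted p = 0.000681) in exons. Their difference was 0.28 (adjusted p = 0.0036). Igf1r, the receptor of insulin-like growth factors, rose by 0.46 (adjusted p = 7.68e-05) outside and 0.35 in exons. Hmga1 had 0.28 (adjusted p = 0.0157) outside, a call lost without replicate 3 of siControl, siControl_IL17 or siIMP2_IL17, and -0.10 (adjusted p = 0.11) in exons. Of 5 long noncoding RNAs 2 were called higher outside exons (median 0.21), against 11.3% of all genes. They were Neat1 (0.27, adjusted p = 0.0455) and Malat1 (0.21, adjusted p = 0.0456), nuclear RNAs of paraspeckles and speckles, with calls lost on leaving out most single libraries. Meg3, an imprinted noncoding RNA, had 0.21 (adjusted p = 0.0544). For Neat1 the difference from its exon change of -0.11 was 0.38 (adjusted p = 7.93e-05).

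Few members of other marker lists entered. Krt19, an epithelial keratin, rose by 0.76 (adjusted p = 1.91e-06) outside exons and 0.68 in exons, and it was the only epithelial marker of 6 with enough outside reads. Of 4 neural markers Nes, an intermediate filament protein also made by proliferating cells, rose by 0.65 (adjusted p = 2.89e-07) and Map2 and Stmn2 fell by 1.21 and 0.72 (adjusted p = 0.00356 and 0.0326). Over all genes 11.3% were higher and 11% lower outside exons. The Map2 call was lost without siControl replicate 3, and that of Stmn2 without 7 of the 8 NA libraries (all but siControl_IL17 replicate 2). No endothelial, erythroid or skeletal muscle marker entered. The 2 macrophage markers that did, Cd14 and Cd68, had -0.52 (adjusted p = 0.125) and -0.01 (adjusted p = 0.956). The part of these cell types in the results was not tested.

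**Figure D4:**
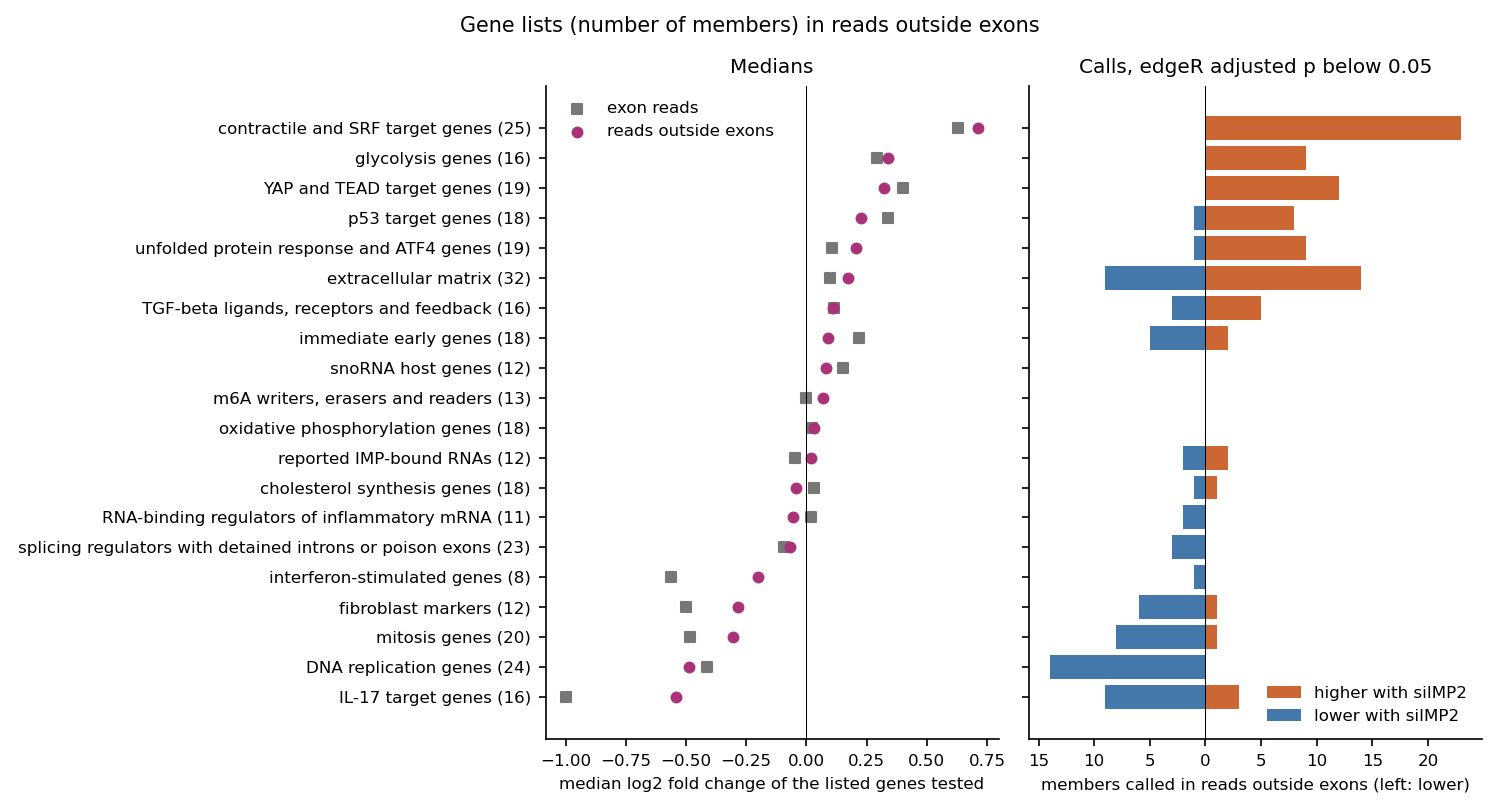
Left, median log2 fold change (siIMP2 over siControl) of the listed genes tested in exon reads (squares) and in reads outside exons (circles); right, number of members called higher (right of 0) or lower (left of 0) outside exons by edgeR, with the number of members in brackets. Only lists with at least 8 members are drawn; among them contractile genes have the highest median in both kinds of read, and IL-17 target and DNA replication genes the lowest medians outside exons.

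The siRNA comparison without and with IL-17 rests on separate libraries. Without stimulus 1347 of 12373 genes (10.9%) were called outside exons, 736 higher (5.95%) and 611 lower (4.94%). After IL-17 1338 (10.8%) were called, 755 higher (6.1%) and 583 lower (4.71%), and 875 without siControl_IL17 replicate 2. Of the 736 genes called higher without stimulus 730 (99.2%) had the same sign after IL-17, as had 603 of the 611 called lower (98.7%), against 72.8% of all genes. The medians went from 0.61 to 0.55 for the genes higher and from -0.76 to -0.61 for those lower. The test of the difference between the 2 effects called 0 genes outside exons (0.0%) in edgeR, with 373 at an unadjusted p under 0.05, and 0 in DESeq2, with 108. Cnn1 rose by 1.80 without and 1.72 with IL-17 outside exons, and Cxcl1 had -2.53 and -2.33. Of the differences between kinds of read, 337 (2.95%) were called without stimulus, 212 above (1.85%) and 125 below (1.09%), and 308 (2.69%) after IL-17, 186 above (1.63%) and 122 below (1.07%). In exon reads 4505 genes (32.9%) were called without stimulus, 2212 higher (16.1%) and 2293 lower (16.7%), and 4581 (33.4%) after IL-17, and the difference between stimuli was called for 0 genes by edgeR, with 152 at an unadjusted p under 0.05. Of those above without stimulus 208 kept their sign after IL-17, as did 123 of those below, against 65.6% of all genes.

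**Figure D5:**
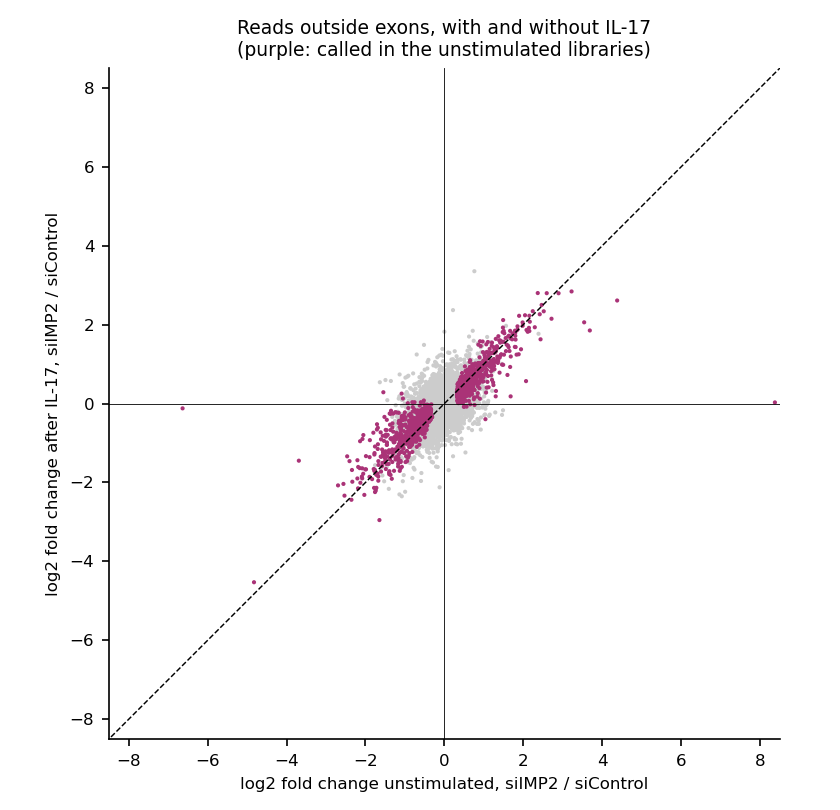
Log2 fold change of reads outside exons (siIMP2 over siControl) after IL-17 against that without stimulus for 12373 genes; each point is a gene and the coloured points were called without stimulus. Most coloured points lie near the line of equal change, and the point at the far right is Gm37388, whose 126 outside reads all came from siIMP2 replicate 3.

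The title sets share no library either. Of 1218 genes called higher outside exons in the 8 NA libraries alone 1091 (89.6%) had the same sign in the 4 RB160 libraries, as had 935 of 1144 called lower (81.7%), against 65.9% of all genes. The medians went from 0.54 to 0.38 and from -0.63 to -0.30. For the difference between kinds of read the counts were 429 of 489 above and 362 of 432 below, against 61.4% of all genes.

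What else the members shared was examined from the annotation. Of the 12373 genes 11236 (90.8%) were protein coding, 318 had no annotated exon in the files and 15 were mitochondrial. The median member had 927 outside reads (quartiles 402 and 1922), which were 8.04% of its gene reads. The span of 6470 members (52.3%) overlapped another annotated gene, where reads cannot be assigned without doubt, and 10005 (80.9%) had 90% or more of their reads placed uniquely. Among 5903 members whose span overlapped no other gene 1328 were called outside exons. Members called higher had a median length of 29.2 kb, those called lower 34.8 kb and the others 22.7 kb. The largest outside totals were those of Filip1l, with 2% of all outside reads, of which 0.146% were unique, Rn18s-rs5 with 1.61% and mt-Atp8 with 1.37%. In 8 members 50% or more of the outside reads came from 1 library, and 5 of these were called.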

How the data were processed

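Per the file headers, the deposited files hold raw counts of reads per gene in each library, as exon reads and as total gene reads. Reads are trimmed pairs (per the file headers) and the genome is mm10 (per the submitters' processing notes). Aligner, counter and strand setting: not given in the sources used here, so antisense and overlapping genes cannot be told apart. No column of per-sample values was left unmapped (0). Outside reads are total gene reads minus exon reads. The quasi-likelihood test of edgeR 4.0.16 (R 4.3.3) was run on all 12 libraries, with TMM factors, terms for group (4) and title set, and a contrast averaged over stimuli. P-values were adjusted by Benjamini-Hochberg, at a threshold of 0.05. Genes needed 100 outside reads, and exon reads passed filterByExpr (minimum count 10, total 15). The outside-minus-exon difference came from 24 columns with a term for each library. Named genes are a panel of 14, the 6 of smallest p in each of 4 sets (higher or lower outside exons, and above or below the exon change; established symbol, overlapping no other expressed gene, same sign in both title sets, mean exon log2 CPM of at least 1) and up to 3 per list; some of them are not reported here. The members and the 28 gene lists were chosen with earlier results of these data known. Log2 ratios for limma used a prior count of 2.

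Counts were simulated for 11443 genes, with 200 changed in outside reads only. Of 1.5-fold and 2-fold changes 78% and 96% were recovered in outside reads and 56% and 85% in the difference. Of the calls 6.45% and 7.24% were false. Exon and outside counts were drawn independently and without an IL-17 effect. In the data 22.3% of genes were called outside exons, so these rates hold for the simulated setting and may not carry over. Alternatives included DESeq2 1.42.0 and limma 3.58.1. Tables and figures were made with matplotlib 3.10.9, numpy 2.4.6, pandas 2.3.3 and Python 3.11.15.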

Additional observations from a re-analysis of the deposited data

How the results depend on the processing

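Without the title-set term the calls were 407 outside exons, 1666 in exons, 161 for the difference, 45 without stimulus and 18 after IL-17. Of the calls of named genes, 48 of 71 outside exons, 42 of 80 in exons and 20 of 32 differences were lost. Restricting genes gave 1783 outside calls with at least 1000 outside reads (of 5855 genes), and among genes overlapping no other gene 1328 outside, 458 differences (of 5465), 628 without stimulus and 646 after IL-17. Fewer genes were tested there. The difference was called for 388 genes by DESeq2, 625 with exon scaling, 427 by limma on the log2 ratio and 365 with a prior count of 0.5; the cause was not tested. With no filter beyond 1 read, 5 of 22332 genes were called for the difference between stimuli. Leaving out each library gave 2307 to 2575 outside calls, 6035 to 6591 exon calls, 748 to 1027 differences, 904 to 1421 calls without stimulus, 875 to 1493 after IL-17 and 0 for the difference between stimuli. The difference in the outside share between the siRNAs then ranged from -0.06 to 0.13 on the log2 scale. Added after seeing the data, nuclear genes with 2 or more exons and 90% unique reads gave 2326 outside calls (of 9686), and leaving out both RB160 IL-17 libraries gave 2412 and 894 differences. Of 6148 values of named genes 0 reversed, 412 lost and 39 gained a call. These values pool all settings, also those that leave out 1 library. Many of the genes were chosen by smallest p, some also by the same sign in both title sets, so the lack of reversals is no independent evidence. The alternatives with uniquely mapped exon reads and with an intron read column could not be run, as the files used here hold no such columns. No paired analysis was possible because the labels give no replicate numbers: those used here follow accession order within a group, name libraries only and pair none. At 1.55 to 3.37 reads per outside CPM, changes of members near 100 reads are measured with wide errors.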
